A study of Mus musculus with 20 samples.

Results

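Autophagy machinery genes code for the proteins that build an autophagosome, fill it and deliver it to the lysosome. Here 36 of them were followed through the frontal cortex of mice with 0, 1 or 2 copies of a disease-linked change in TDP-43. They were chosen by name: 35 were found under their symbol in a table of 25965 rows, and Atg101 was found by its gene identifier, because the table lists it as 9430023L20Rik. The rule that picks them uses names alone. All 36 passed the filter on low counts, so no member is missing from the tests.

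The tissue came from C57BL/6 mice at 5 months of age. The groups were 6 wild-type libraries (+/+), 6 heterozygous libraries (Q331K/+) and 8 homozygous libraries (Q331K/Q331K). Q331K is a single amino acid change in TDP-43, the RNA-binding protein encoded by Tardbp. It was knocked into the mouse's own gene, so each cell type that makes TDP-43 can make the changed protein. No transgene, drug or second allele is named, and the labels do not say whether each library came from a separate animal, so p-values measure only the spread between these samples.

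Autophagy starts when the ULK1 kinase complex becomes active, which the kinase MTORC1 holds back in fed cells and AMPK promotes. A lipid kinase complex around Beclin 1 then marks the growing membrane, ATG9 vesicles and the lipid transfer protein ATG2 feed it, and 2 conjugation chains attach ATG8 proteins (the LC3 and GABARAP families) to its lipids. Receptors bind both cargo and ATG8, and the finished autophagosome fuses with the lysosome. Neurons depend on this route because they do not dilute damaged protein by dividing, and TDP-43 itself is one of the proteins it can clear.

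None of the 36 genes passed the test in any comparison. In homozygotes against wild type, 0 of 36 had an adjusted p under 0.05 (edgeR quasi-likelihood test, Benjamini-Hochberg adjustment over 16690 genes), where 1.56% of all genes tested did. At an unadjusted p under 0.05 there were 5 of 36, or 13.9%, against 16.1% of all genes, and each of the 5 had a lower estimate in homozygotes. DESeq2, an alternative tool, called 2 of the 36, Map1lc3b and Atg4b, beside 3.69% of all genes. The share of members with a small p was therefore near the background.

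The estimates were small and more often below 0. Of the 36 log2 changes in homozygotes, 27 were below 0 and 9 above, and their median was -0.0353 against 0.0013 over all genes tested, of which 49.4% were below 0. The median was -0.0199 with 3 surrogate variables, -0.0157 with scores of ependymal, olfactory bulb and meningeal markers in the model and -0.0143 without the 4 libraries of high ependymal score. The number below 0 ran from 23 to 29 over 29 alternatives. The estimates ran from -0.10 for Map1lc3b to 0.11 for Atg4a. The median absolute log2 change was 0.039 for the members and 0.058 for all genes. Estimates below 0 were also the more frequent in related lists of autophagy, lysosome and nutrient-sensing genes, at 89 of 143 tested, or 62.2%. The CPM (counts relative to library size, after TMM scaling) summed over the 36 genes ran from 3258 to 3335 in wild type (median 3269), from 3174 to 3277 in heterozygotes (median 3220) and from 3143 to 3260 in homozygotes (median 3207). The wild-type and homozygous sums overlapped only between 3258 and 3260. Abundant genes weigh most in this sum: Gabarapl1 alone averaged 673.7 CPM in wild type and 656.4 in homozygotes. No other set of 36 genes was summed for comparison. The tissue is a mixture of cells, and fewer cells of a type cannot be told apart from less RNA per cell.

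Within the reported fit, the precision bounds how large a change could be. In homozygotes, the 95% interval of the log2 change lay within 0.1 on either side of 0 for 17 of 36 members, within 0.15 for 30 and within 0.2, a fold of 1.149, for 34, while 55.6% of all genes had an interval within 0.2. Atg4a and Tfeb, the members with the lowest level per exon length, were the exceptions, and their intervals lay within 0.25. In heterozygotes, 35 of 36 intervals lay within 0.2, and the exception was Tfeb. These intervals do not cover shifts between fits. In homozygotes Map1lc3b was at -0.145 ± 0.0297 (SE) with tissue scores in the model and -0.143 ± 0.0362 (SE) with 3 surrogate variables, against -0.104 in the reported fit. Atg4b moved towards 0, from -0.0849 to -0.0727 with 3 surrogate variables.

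**Figure D1:**
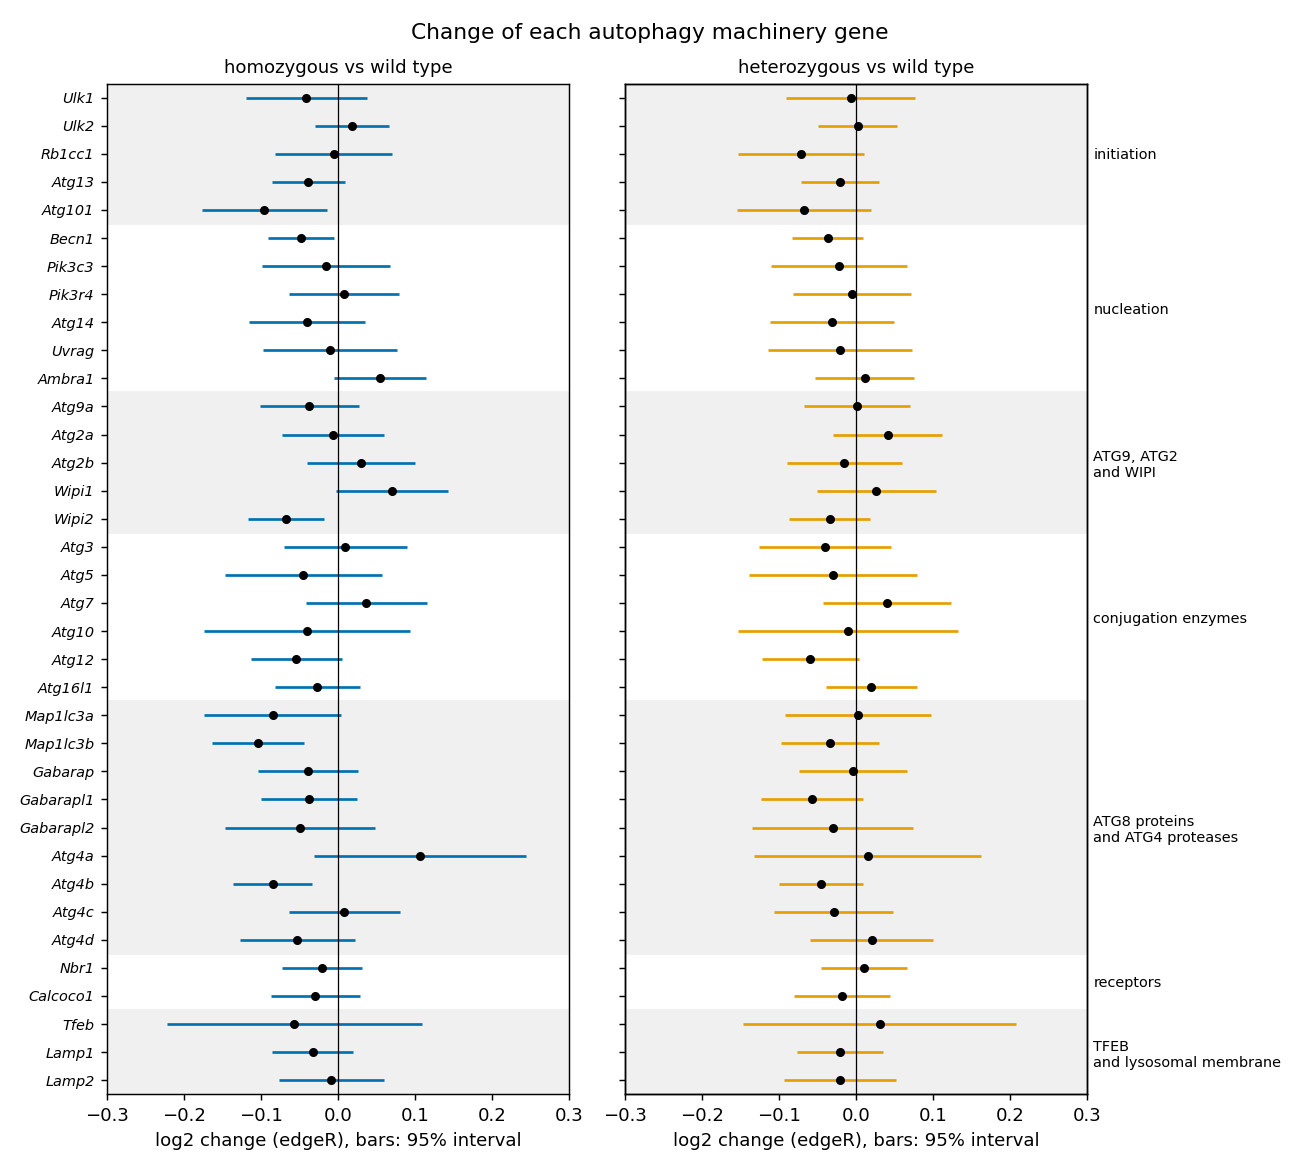
Log2 change of each of the 36 genes (horizontal axis; points are edgeR estimates, bars 95% intervals) in homozygotes (left) and heterozygotes (right) against wild type, with genes on the vertical axis grouped by role. The homozygous estimates lie between -0.10 and 0.11, and 27 of 36 lie left of 0.

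Samples were deeply sequenced, at 61282647 to 111440766 counts per library, of which the members took 0.312% to 0.331%. The edited gene Tardbp ran from 210.0 to 226.6 CPM in wild type, from 215.1 to 235.1 CPM in heterozygotes and from 233.8 to 263.6 CPM in homozygotes. Markers of cortical excitatory neurons (6 of 6 tested) summed to between 6225 and 7323 CPM in each library. Some libraries stood apart in markers of neighbouring tissue: the 6 ependymal markers summed to at most 7.30 CPM in wild type, but to 13.2 in heterozygous replicate 2 and 16.9 in homozygous replicate 1. The 5 olfactory bulb markers reached 80.5 CPM in homozygous replicate 8 against at most 21.9 in wild type, and the 6 striatal markers reached 382.8 CPM in heterozygous replicate 1 against at most 198.6 in wild type. The ependymal marker Tmem212 and the olfactory marker Eomes were at 0 in at least 1 library. Among the members, homozygous replicate 6 was the lowest of its genotype for 10 of the 36 genes and the highest for 9.

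Levels per exon length differed widely among the genes, by far more than between genotypes. On the scale of CPM per kb of exon, the ATG8 gene Gabarapl1 stood first at 370.2 ± 7.27 in wild type (SD, n = 6). Lamp1, a major glycoprotein of the lysosomal membrane, followed at 121.6 ± 1.15 (SD, n = 6), then Map1lc3a at 107.4 ± 4.89 (SD, n = 6) and Gabarap at 82.6 ± 3.19 (SD, n = 6). Neighbours in the order did not always differ beyond their spread: Atg9a at 37.6 ± 0.720 and Map1lc3b at 36.4 ± 0.656 (SD, n = 6 each) overlapped within 2 SD. The lowest were Atg10 at 3.68, Atg4d at 3.28, Atg4a at 3.08 and the transcription factor Tfeb at 1.42 CPM per kb. The lengths are those of exons in protein-coding transcripts. With all annotated exons instead, the first 6 and the last 4 kept their places, and Atg16l1 moved furthest, from rank 11, shared with Becn1, to rank 25.

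**Figure D2:**
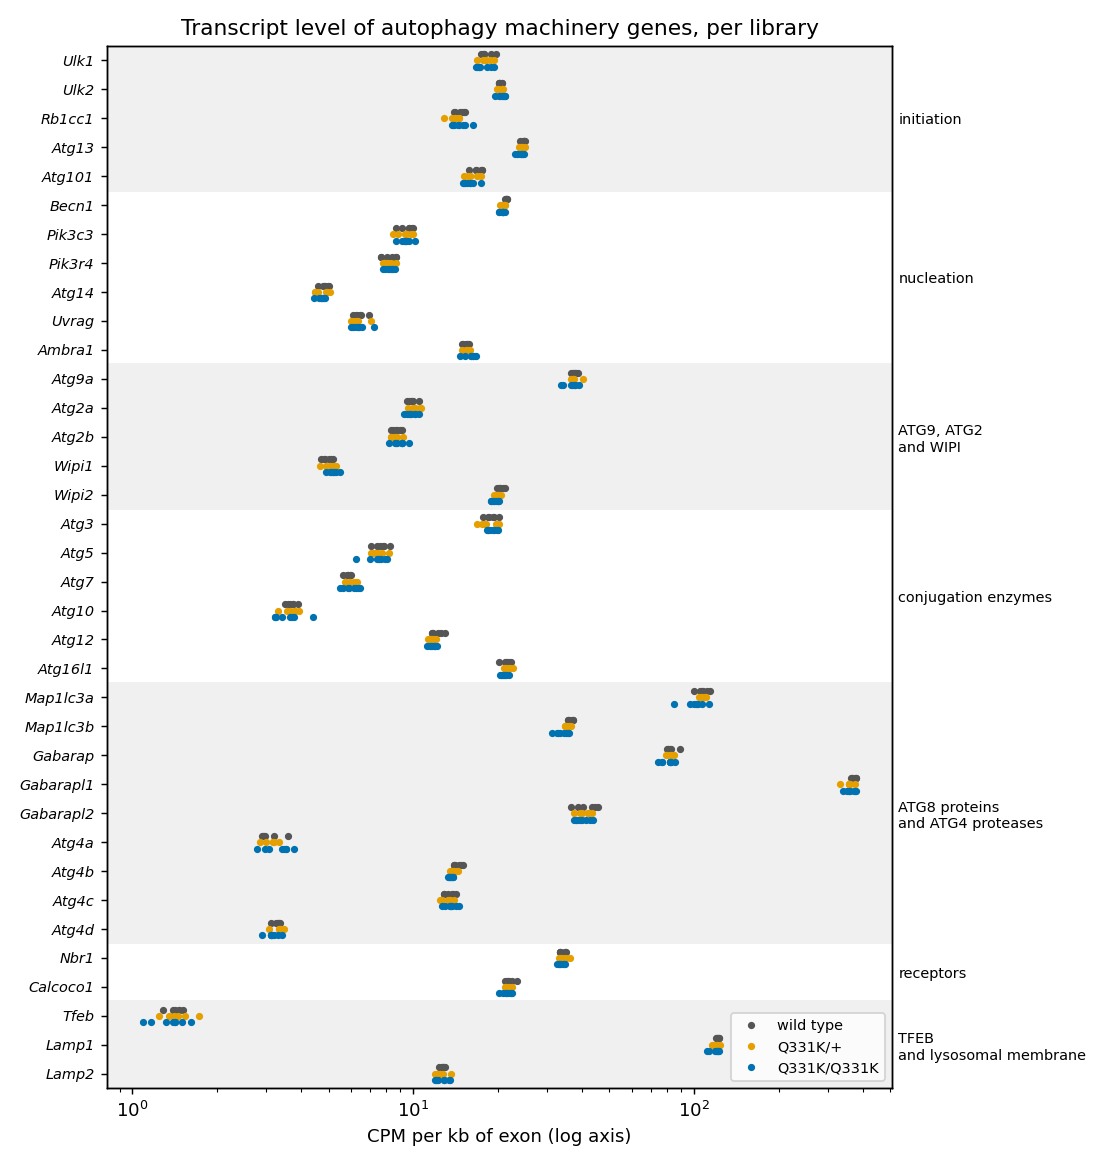
Level of each of the 36 genes in each of the 20 libraries (points), in CPM per kb of exon on a log axis, with genes on the vertical axis grouped by role and genotypes in 3 colours. Gabarapl1 is highest and Tfeb lowest, and the colours lie over each other for nearly every gene.

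Replicates were tight. The coefficient of variation among the 6 wild-type libraries ran from 0.572% for Becn1 to 8.79% for Atg4a. In wild type, replicate 4 was the lowest library for 13 of the 36 genes and replicate 1 the highest for 11.

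The initiation complex consists of the kinases ULK1 and ULK2, the scaffold FIP200 (encoded by Rb1cc1) and the adaptors ATG13 and ATG101. None of the 5 genes passed, 4 of the 5 estimates were below 0, and the median log2 change in homozygotes was -0.04. Ulk1 and Ulk2 were expressed at like levels per length, with Ulk1 making up a median of 46.8% of the pair in wild type, 46.6% in heterozygotes and 46.0% in homozygotes. The log2 change in homozygotes was -0.04 for Ulk1, 0.02 for Ulk2, -0.04 for Atg13 and -0.0060 for Rb1cc1. Exons of Rb1cc1 overlap those of 4732440D04Rik on the opposite strand, and since the strand setting of the counting is not given, reads there could be shared.

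Atg101 (chr15:101284301-101290934, plus strand, GRCm38), which stabilises ATG13 in the complex, had the smallest p of this role. It ran from 19.998 to 22.4 CPM in wild type (median 21.6), from 19.2 to 22.2 CPM in heterozygotes (median 20.3) and from 19.1 to 22.1 CPM in homozygotes (median 20.03). The 3 ranges overlapped, and 4 of 8 homozygous libraries lay below the lowest wild-type library. Its log2 change in homozygotes was -0.10 ± 0.039 (SE; edgeR adjusted p = 0.2215). It was -0.0504 with tissue scores in the model and -0.0010 with 3 surrogate variables.

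Nucleation is the work of the lipid kinase VPS34 (Pik3c3), its regulatory subunit VPS15 (Pik3r4) and Beclin 1 (Becn1). ATG14 directs this complex to autophagosome formation, UVRAG takes the place of ATG14 in a second complex, and AMBRA1 is a regulator that binds Beclin 1. None of the 6 genes passed, 4 estimates were below 0, and the median log2 change was -0.01. Ambra1 had the highest estimate at 0.05, and 6 of 8 homozygous libraries lay above the highest wild-type library (83.6 CPM), with an adjusted p of 0.3741 (edgeR). Pik3c3, Pik3r4 and Uvrag lay between -0.02 and 0.01, and Atg14 was at -0.04. Exons of Becn1, Atg14 and Uvrag overlap those of Cntd1, Gm49004 and Gm45187 on the opposite strands.

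Becn1 (chr11:101285952-101302286, minus strand) was the least variable member in wild type. Its SD was 0.578 CPM there, against 1.77 CPM in heterozygotes and 1.52 CPM in homozygotes. Its levels ran from 100.03 to 101.6 CPM in wild type (median 101.1), from 95.9 to 100.1 CPM in heterozygotes (median 99.2) and from 95.4 to 99.8 CPM in homozygotes (median 98.0). All 8 homozygous libraries lay below all 6 wild-type libraries, while the heterozygous range touched both. This separation rests in part on the narrow wild-type range. The difference between homozygotes and wild type was small, at -0.05 on the log2 scale ± 0.021 (SE; edgeR adjusted p = 0.241). Across the transcriptome, 0.779% of genes had wild-type and homozygous CPM ranges that did not overlap, and among the members these were Becn1 and Atg4b, both lower in homozygotes.

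Membrane supply involves ATG9A, a scramblase in vesicles, the lipid transfer proteins ATG2A and ATG2B, and the WIPI proteins, which read the lipid made by VPS34. None of the 5 genes passed, 3 estimates were below 0, and the median log2 change was -0.0063. The closely related pair Wipi1 and Wipi2 had estimates of opposite sign, 0.07 and -0.07, and neither passed (edgeR adjusted p = 0.3317 and 0.1511). Wipi2 held a median of 80.8% of the pair's level per length in wild type, from 79.5% to 81.4%, 79.9% in heterozygotes, from 79.0% to 81.0%, and 79.2% in homozygotes, from 77.6% to 80.3%, and these ranges overlapped. Atg2b made up a median of 46.9% of the Atg2a and Atg2b level in wild type and 47.2% in homozygotes. The log2 change in homozygotes was -0.04 for Atg9a, whose exons overlap Gm29253 on the same strand. It was -0.0063 for Atg2a and 0.03 for Atg2b, whose exons overlap Gskip on the opposite strand.

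Wipi2 (chr5:142629542-142670588, plus strand), the WIPI protein that recruits ATG16L1, ran from 102.4 to 109.7 CPM in wild type (median 105.7). It ran from 100.3 to 106.2 CPM in heterozygotes (median 103.6) and from 97.9 to 104.2 CPM in homozygotes (median 101.1). The ranges overlapped, with 5 of 8 homozygous libraries below the lowest wild-type library. The log2 change was -0.07 ± 0.024 (SE), and it was -0.0449 once libraries high in the ependymal score were left out and -0.0422 with 3 surrogate variables.

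Conjugation resembles ubiquitination: ATG7 is the activating enzyme, ATG10 and ATG3 are the conjugating enzymes, and ATG12 joined to ATG5 binds ATG16L1 to place ATG8 on the membrane. None of the 6 genes passed or had an unadjusted p under 0.05, 4 estimates were below 0, and the median log2 change was -0.03. Atg12, the ubiquitin-like member, had the smallest p. Its levels ran from 55.6 to 61.8 CPM in wild type (median 57.3), from 54.0 to 57.6 CPM in heterozygotes (median 55.5) and from 53.2 to 57.7 CPM in homozygotes (median 56.0). The ranges overlapped, and the log2 change was -0.05 ± 0.029 (SE; edgeR adjusted p = 0.3598). The others were Atg7 at 0.04, Atg3 at 0.0091, Atg16l1 at -0.03, Atg10 at -0.04 and Atg5 at -0.05. Atg16l1 and Atg3 had the highest level per length of the role, at 21.4 ± 0.737 and 18.9 ± 0.876 CPM per kb in wild type (SD, n = 6), and Atg10 the lowest.

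ATG8 proteins are made with extra residues at the end, and an ATG4 protease removes them to expose the glycine that is joined to lipid. Coding ends of 4 members are shown as examples of the place where the protease acts. In these 4 the reading frame ends 1 codon after the glycine codon. Each line gives the final 30 coding bases before the stop codon, from the GRCm38 transcripts of GENCODE M21, on the plus strand, with the last glycine codon in capitals.
Map1lc3a, chr2:155277605-155277634: gtctacgcctcccaagaaaccttcGGCttc
Gabarap, chr11:69994492-69994521: gcctacagtgatgaaagcgtctatGGTctg
Gabarapl1, chr6:129541135-129541164: gcctacagtgatgaaagtgtctatGGAaaa
Gabarapl2, chr8:111952373-111952402: gcctacagcggagagaacacttttGGCttc
The glycine codon is number 120 of 121 codons in Map1lc3a and number 116 of 117 in the 3 GABARAP family genes.

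Among the ATG8 genes, Gabarapl1 dominated the transcript pool in all genotypes. It held a median of 57.8% of the family's level per exon length in wild type, 57.4% in heterozygotes and 58.2% in homozygotes, and Map1lc3a was next with 16.8%, 17.3% and 16.7%. Gabarap held 12.9%, 13.2% and 13.01%, and Gabarapl2 6.62%, 6.66% and 6.48%. Map1lc3b, the LC3 gene whose protein is most used as an autophagosome marker, held 5.70% in wild type, 5.67% in heterozygotes and 5.46% in homozygotes, with overlapping ranges. These shares depend on exon length, 5182 bases for Map1lc3b against 1112 to 1820 for the other ATG8 genes. How much of that length the transcripts use was not measured. Without division by length, Map1lc3b averaged 188.5 CPM in wild type, below Gabarapl1 at 673.7 but above Map1lc3a at 119.4. All 5 ATG8 estimates in homozygotes were below 0, except for Gabarapl1 with tissue scores in the model (0.0026), and none passed: -0.09 for Map1lc3a, -0.10 for Map1lc3b, -0.04 for Gabarap, -0.04 for Gabarapl1 and -0.05 for Gabarapl2. Exons of Gabarapl1 overlap 1700101I11Rik on the opposite strand.

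Map1lc3b (chr8:121590468-121598047, plus strand) came nearest to the threshold. It ran from 185.1 to 192.8 CPM in wild type (median 188.2) and from 180.2 to 189.0 CPM in heterozygotes (median 184.5). The 8 homozygous libraries, replicates 1 to 8, held 184.3, 186.1, 182.0, 178.2, 172.4, 161.3, 170.2 and 169.1 CPM (median 175.3). Of these 7 lay below the lowest wild-type library, and replicate 2 lay inside the wild-type range. The log2 change was -0.10 ± 0.029 (SE) and a 95% interval from -0.16 to -0.04, and the edgeR adjusted p was 0.0659.

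The call of Map1lc3b turned on settings and single libraries. DESeq2 called it at a log2 change of -0.10 (adjusted p = 0.0176). Without homozygous replicate 1 it was called at -0.115 (edgeR adjusted p = 0.0491, with 1.31% of all genes called), and without homozygous replicate 2 at -0.117 (edgeR adjusted p = 0.030, with 1.69% called). Leaving out each of the 20 libraries in turn gave adjusted p from 0.030 to 0.142, and the remaining alternatives gave 0.0145 to 0.149. The log2 change stayed below 0 in all 29 alternatives.

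Some marker scores, though not most, separated homozygous libraries of higher and lower Map1lc3b. The oligodendrocyte score, a mean z score of log2 CPM over 5 markers, was 0.832, 0.896, 0.472 and 0.869 in replicates 1 to 4, where Map1lc3b was highest, and -0.793, -1.42, -0.543 and -2.16 in replicates 5 to 8. These markers summed to between 2938 and 4069 CPM in wild type and between 2454 and 3926 CPM in homozygotes, and none was at 0. The striatal score was also higher in replicates 1 to 4, at 0.43, 0.78, 0.61 and -0.25. It was -0.60, -0.54, -0.28 and -0.92 in replicates 5 to 8, so the gap was narrow. Scores of cortical excitatory neurons, inhibitory neurons, astrocytes, microglia, endothelium, choroid plexus, meninges and olfactory bulb overlapped between these sets of replicates. The sets were divided by their level of Map1lc3b, and only scores that separated them are given here. Outside the homozygotes the oligodendrocyte score and Map1lc3b did not go together in each library. Wild-type replicate 5 had a score of -1.16 with 191.7 CPM of Map1lc3b. Heterozygous replicate 1 had a score of 1.01 with 180.2 CPM, the lowest of its genotype. The part of these cell types in the level of Map1lc3b was not tested. The ependymal score, made likewise from 6 markers, was 1.79 in homozygous replicate 1, 0.932 in replicate 2 and 1.18 in replicate 4, but 0.0103 in replicate 3. In replicates 5 to 8 it was -0.0554, -0.783, -0.159 and -1.05. The 4 libraries with a score over 0.5 are those 3 and heterozygous replicate 2, with none from wild type. Those 3 are among the homozygous replicates where Map1lc3b was highest, at 184.3, 186.1 and 178.2 CPM. Leaving them out was therefore bound to lower the homozygous mean. Without the 4 libraries, Map1lc3b was called at a log2 change of -0.14 (edgeR adjusted p = 0.0182), as 1.52% of all genes were. With the tissue scores (ependymal, olfactory bulb and meningeal) in the model it was called at -0.145 (edgeR adjusted p = 0.0145), as 1.01% of all genes were. It was the only member called in either fit.

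The 4 ATG4 proteases both prepare ATG8 proteins and release them from lipid. Atg4b, the most active of the family on LC3, made up a median of 42.1% of the family's level per length in wild type, 41.7% in heterozygotes and 40.6% in homozygotes. The log2 change in homozygotes was 0.0078 for Atg4c, which turned below 0 when any 1 of 4 libraries was left out (wild-type replicates 3 and 5, homozygous replicates 3 and 6; lowest -0.0068), and -0.05 for Atg4d, whose exons overlap Kri1 on the opposite strand. Atg4a, at 6.78 CPM in wild type, had the highest estimate of all members, 0.11 with a 95% interval from -0.03 to 0.24 (edgeR adjusted p = 0.4655).

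Atg4b (chr1:93751500-93789434, plus strand), described in full because of its values, ran from 58.4 to 62.7 CPM in wild type (median 59.8), from 56.6 to 60.2 CPM in heterozygotes (median 57.9) and from 55.4 to 57.9 CPM in homozygotes (median 56.6). All 8 homozygous libraries lay below all 6 wild-type libraries, and the heterozygous range overlapped both. The log2 change was -0.08 ± 0.025 (SE) and a 95% interval from -0.14 to -0.03 (edgeR adjusted p = 0.0811). DESeq2 called it at -0.08 (adjusted p = 0.022). No edgeR alternative called it in homozygotes against wild type, with adjusted p from 0.0628 to 0.187 when single libraries were left out and up to 0.544 otherwise.

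**Figure D3:**
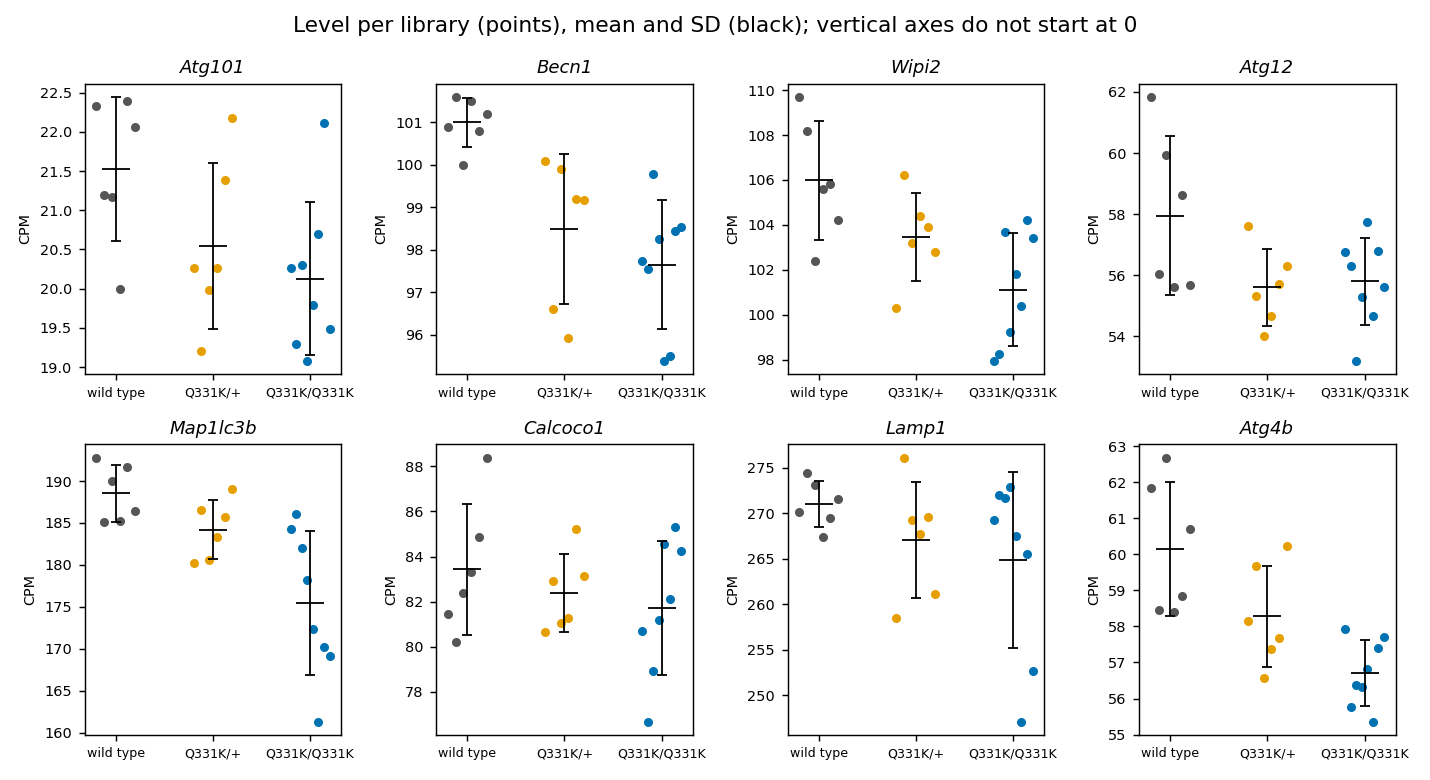
CPM in each library (points) by genotype, with mean and SD in black, for the gene of smallest p in each role and for Atg4b; the vertical axes do not start at 0. Homozygous points lie wholly below wild type for Becn1 and Atg4b, while the other 6 genes overlap.

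**Figure D4:**
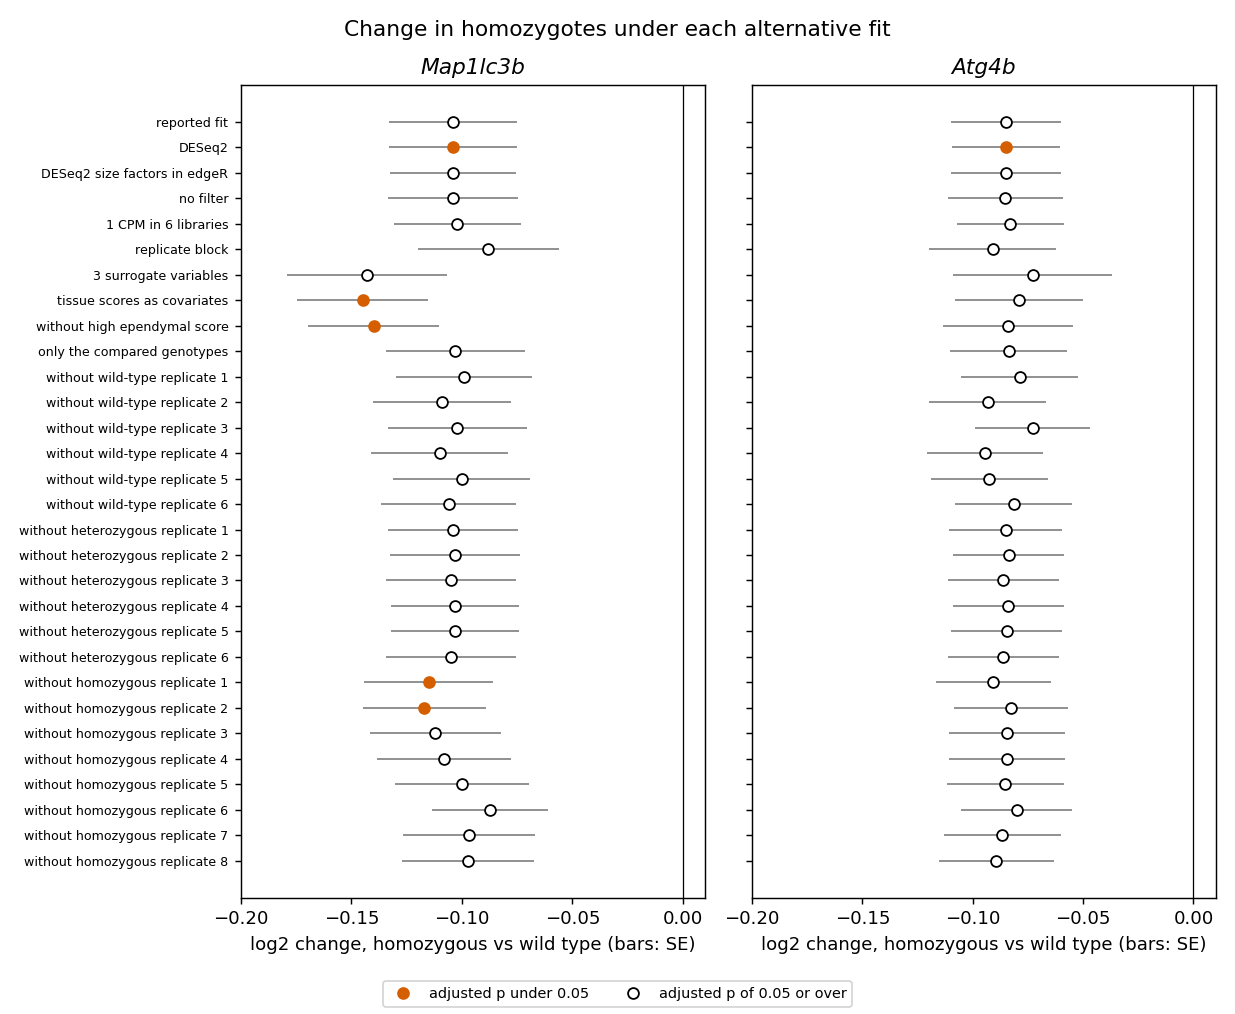
Log2 change of Map1lc3b and Atg4b in homozygotes against wild type (horizontal axis, bars 1 SE) in the reported fit and in each alternative (vertical axis); filled points have an adjusted p under 0.05. All points lie left of 0, 5 alternatives call Map1lc3b and 1 calls Atg4b.

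Receptors among the members are NBR1, which links ubiquitinated cargo to ATG8, and CALCOCO1, a receptor for parts of the endoplasmic reticulum and Golgi. Neither passed, and both estimates were near 0, at -0.02 for Nbr1 and -0.03 for Calcoco1. Calcoco1 (chr15:102706779-102722178, minus strand) ran from 80.2 to 88.4 CPM in wild type (median 82.8), from 80.7 to 85.2 CPM in heterozygotes (median 82.1) and from 76.7 to 85.3 CPM in homozygotes (median 81.6). The ranges overlapped through most of their length. The standard error of its log2 change was 0.028 (edgeR adjusted p = 0.6478), and its estimate was -0.0033 with tissue scores and turned to 0.02 with 3 surrogate variables.

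TFEB is a transcription factor that raises autophagy and lysosome genes together, and LAMP1 and LAMP2 coat the inside of the lysosomal membrane. None of the 3 genes passed. All estimates were below 0, except for Lamp2 with a replicate block (0.010) and without homozygous replicate 5 or 7, at -0.06 for Tfeb, -0.03 for Lamp1 and -0.0091 for Lamp2. Tfeb, at 5.16 to 6.08 CPM in wild type, 4.98 to 6.96 CPM in heterozygotes and 4.38 to 6.51 CPM in homozygotes, had the widest interval of the members, from -0.22 to 0.11. Lamp1 (chr8:13159135-13175338, plus strand) ran from 267.4 to 274.4 CPM in wild type (median 270.8), from 258.5 to 276.1 CPM in heterozygotes (median 268.5) and from 247.1 to 272.9 CPM in homozygotes (median 268.4). The ranges overlapped, and the lowest value belonged to homozygous replicate 6. The standard error of its log2 change was 0.025 (edgeR adjusted p = 0.5609), and the estimate was -0.0625 with tissue scores. Its exons overlap Grtp1 on the opposite strand. Lamp1 held a median of 90.5% of the Lamp1 and Lamp2 level per length in wild type, 90.7% in heterozygotes and 90.4% in homozygotes.

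TFEB and its relatives bind the palindrome CACGTG and favour a T before it. RefSeq promoter windows (250 bases before to 50 after the start, GRCm38.p6) were matched for 30 of the 36 members. TCACGTG, searched on both strands (CACGTGA on the other), was found in 4 of these 30, or 13.3%, and in 1160 of 27025 genes, or 4.29%. The shorter CACGTG, which the longer motif holds, was found in 5 of 30, or 16.7%, and in 8.09% of genes. The 4 members with the longer motif were Atg14, Atg3, Atg7 and Lamp1, and 3 are shown, with matches in capitals, because they span a single site, a palindromic site and a cluster of 4 matches within 75 bases.
Atg7, chr6:114670951-114670980 (plus strand): ccatattggtggTCACGTGtgcagtaagtg
Atg3, chr16:45158745-45158774 (plus strand): gggagagtcgagTCACGTGaggccttaggt
Lamp1, chr8:13159086-13159160 (plus strand): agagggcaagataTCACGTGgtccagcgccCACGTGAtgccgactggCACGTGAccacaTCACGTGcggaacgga
The site in Atg3 reads as the motif on both strands, and Atg3 holds 1 more match upstream. The Atg7 window belongs to a start inside the gene as it was counted, chr6:114643097-114860595 (plus strand). The Lamp1 stretch also runs into the gene as it was counted, which begins at chr8:13159135. The log2 change in homozygotes of these genes was 0.04 for Atg7, 0.0091 for Atg3, -0.04 for Atg14 and -0.03 for Lamp1, and none passed.

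In heterozygotes against wild type 0 of 36 members passed, as did 0% of all genes in edgeR, and 0 of 36 had an unadjusted p under 0.05 against 3.19% of all genes. DESeq2 called 0 of 36 members and 0.00931% of all genes. The estimates ran from -0.07 for Rb1cc1 to 0.04 for Atg2a, 24 of 36 were below 0, and their median was -0.0194 against 0.00172 over all genes. The median was -0.0102 without heterozygous replicate 5 and -0.0108 with 3 surrogate variables. Atg12 stood at -0.06 and Gabarapl1 at -0.06, and for Rb1cc1, Atg2a, Atg12 and Gabarapl1 the heterozygous estimate was further from 0 than the homozygous one. The same held for Atg3, Atg4c, Atg7, Lamp2, Pik3c3 and Uvrag. Both genotype comparisons with wild type share the 6 wild-type libraries, so the same signs in both are not separate evidence.

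Homozygotes against heterozygotes likewise gave 0 of 36 calls, where 0.108% of all genes passed in edgeR, and 1 of 36 at an unadjusted p under 0.05 against 11% of all genes. That 1 was Map1lc3b, at a log2 change of -0.07 ± 0.029 (SE; edgeR adjusted p = 0.3884). DESeq2 called 0 of 36 members and 0.575% of all genes. The estimates ran from -0.09 for Tfeb to 0.09 for Atg4a, with a median of -0.01.

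A trend over the number of Q331K alleles called 0 of 36 members, while 1.83% of all genes passed. At an unadjusted p under 0.05 there were 6 of 36, or 16.7%, against 16.8% of all genes: Atg101, Becn1, Wipi2, Map1lc3b and Atg4b with a lower estimate per allele, and Wipi1 with a higher one. Map1lc3b changed by -0.05 per allele (edgeR adjusted p = 0.0535) and Atg4b by -0.04 per allele (edgeR adjusted p = 0.0667), neither past the threshold. DESeq2 called both, beside 4.05% of all genes. The median change per allele was -0.0167 for the members and 0.00065 for all genes. It was -0.00706 once libraries high in the ependymal score were left out, -0.0079 with tissue scores and -0.00978 with 3 surrogate variables.

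Genes around the machinery were read from 8 further lists, of which 145 genes were found and 143 tested. None was called in homozygotes against wild type in edgeR, where 1.56% of all genes were. At an unadjusted p under 0.05 there were 17 of 143, or 11.9%, against 16.1% of all genes, with 14 lower and 3 higher, and the median log2 change was -0.02. DESeq2 called 3 of them, Foxo3, Sesn1 and Zkscan3, where it called 3.69% of all genes. The counts by list that follow stand beside the same 16.1%.

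Among 28 genes of MTORC1, its TSC brake and its RAG switch, 5, or 17.9%, had an unadjusted p under 0.05, 4 lower and 1 higher. Sesn1, a sensor that restrains MTORC1, averaged 61.2 ± 0.882 CPM in wild type (SD, n = 6) and 56.8 ± 2.41 CPM in the 8 homozygous libraries (SD), which is -0.11 on the log2 scale (edgeR adjusted p = 0.0700). Akt1s1, an MTORC1 subunit that inhibits it, was at a log2 change of -0.13 (edgeR adjusted p = 0.0986), and Rragd, a RAG GTPase, at -0.09 (edgeR adjusted p = 0.1492). Of 8 tested AMPK genes, 1 had an unadjusted p under 0.05: Prkag1, a regulatory subunit, at -0.07.

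Regulators of autophagy transcription gave 3 of 10 at an unadjusted p under 0.05, or 30% against 16.1% of all genes, each lower. Zkscan3, a zinc finger protein known as a repressor of autophagy genes, averaged 55.9 ± 2.47 CPM in wild type (SD, n = 6) and 49.5 ± 4.56 CPM in the 8 homozygous libraries (SD), which is -0.18 on the log2 scale (edgeR adjusted p = 0.0944). Foxo3, a factor known to activate them, was at -0.08 (edgeR adjusted p = 0.0939) and its relative Foxo4 at -0.13 (edgeR adjusted p = 0.2515).

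Cargo receptors with the kinase Tbk1 gave 0 of 14 at an unadjusted p under 0.05. Sqstm1, which encodes the receptor p62, had the smallest p of that list, with a mean of 430.0 ± 4.08 CPM in wild type (SD, n = 6) and 415.2 ± 10.5 CPM in the 8 homozygous libraries (SD), -0.05 on the log2 scale (edgeR adjusted p = 0.3165). Fusion genes gave 2 of 15 in opposite directions: the SNARE Ykt6 was at -0.06 (edgeR adjusted p = 0.1968) and the autophagosomal SNARE Stx17 at 0.10 (edgeR adjusted p = 0.2643). Other early factors gave 0 of 13.

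On the lysosomal side, 3 of 18 genes of the proton pump (V-ATPase), or 16.7%, had an unadjusted p under 0.05, each lower. The highest estimate of the list was 0.24 for Atp6v0c, which was not among them. The 3 were Atp6v0e at -0.15 (edgeR adjusted p = 0.1284), Atp6v0a2 at -0.09 and Atp6v0e2 at -0.06. Of 37 hydrolase and membrane genes 3 did, or 8.11%, 2 lower and 1 higher. Scarb2, which carries glucocerebrosidase to the lysosome, averaged 61.3 ± 0.810 CPM in wild type (SD, n = 6) and 64.4 ± 2.20 CPM in the 8 homozygous libraries (SD), which is 0.07 on the log2 scale (edgeR adjusted p = 0.1484). The protease gene Ctsf was at -0.06 and the sialidase gene Neu1 at -0.06.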

How the data were processed

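RNA-seq of frontal cortex was analysed in 20 libraries grouped by the genotype in the labels. Per the labels' protocols, the libraries were stranded and built from polyadenylated RNA. Trim Galore 0.4.3, HISAT2 2.0.5 and GRCm38 were used, per the submitters' processing notes. Which program, annotation and strand option the counting used is not given in the sources used here. The table deposited by the authors holds raw counts per gene as whole numbers. Named rows without an identifier (56) held at most 0.0835% of any library's counts.

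A robust quasi-likelihood model by genotype was fitted over all 20 libraries with edgeR 4.0.16 (R 4.3.3, TMM scaling, filterByExpr). A gene was called if its Benjamini-Hochberg adjusted p over the 16690 kept genes was under 0.05. Intervals use the moderated degrees of freedom. The fit was tested on simulated data with genes of all levels. In homozygotes against wild type it recovered 36.1% of log2 changes of 0.2, 59.3% of 0.3 and 74% of 0.5. Of its calls in that comparison 3.76% were false. A change of the size estimated for the members could thus often go uncalled. No pair of libraries within a genotype was identical or agreed within sampling noise (smallest chi-square per degree of freedom 13 over 58 pairs). Exon lengths and overlaps came from GENCODE M21, which held 96.5% of identifiers, and gene coordinates from the deposited table.

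The members and lists were chosen with earlier results of these data known. Genes given in full were any member called and the member of smallest p in each role. Of the further lists, up to 3 genes of smallest p were named. Atg4b was added after its values were seen. Alternatives were DESeq2 1.42.0, its size factors, no filter, 1 CPM in 6 libraries, a replicate block, 3 surrogate variables (sva 3.50.0), tissue scores as covariates, fits of the compared genotypes alone, and leaving out libraries of high ependymal score (over 0.5) or each library in turn. The coding end of 1 ATG8 gene is not reported here.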

Additional observations from a re-analysis of the deposited data

Results flagged for a closer look

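In 7 of the 108 sets of values (36 genes in 3 genotypes), 1 library lay further from its neighbours than a Dixon test at the 95% level allows. Chance alone gives about 1 in 20 such sets (5%), so 7 is close to that share. Uvrag appeared in 2 genotypes, each time with replicate 6 high: 36.49 CPM in heterozygous replicate 6, where the next value was 32.79, and 37.35 CPM in homozygous replicate 6, where the next was 33.96. Heterozygous replicate 4 stood out in opposite directions for 2 genes, highest for Atg9a at 176.8 CPM (next 164.1) and lowest for Atg4d at 18.22 CPM (next 19.84). In wild type, Atg13 was lowest in replicate 3 at 88.0 CPM (next 90.38) and Gabarap highest in replicate 5 at 120.0 CPM (next 111.7). Atg10 was highest in homozygous replicate 3 at 6.973 CPM (next 5.952).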

How the results depend on the processing

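In homozygotes against wild type the number of members called, 0, became 2 with DESeq2 (Atg4b and Map1lc3b), 1 with tissue scores as covariates and 1 without the libraries of high ependymal score (Map1lc3b in both), and ran from 0 to 1 over single libraries left out (Map1lc3b without homozygous replicate 1 or 2). For the trend, 0 became 2 with DESeq2, 1 with DESeq2 size factors in edgeR, 1 with tissue scores and 1 without high ependymal scores, and ran from 0 to 2 over single libraries left out: Map1lc3b and Atg4b without wild-type replicate 4, and Map1lc3b without homozygous replicate 1 or 2. The number was 0 in the other 2 comparisons under each alternative run. The median log2 change of members in homozygotes against wild type moved from -0.0353 to -0.0199 with 3 surrogate variables, -0.0157 with tissue scores and -0.0143 without high ependymal scores, and in homozygotes against heterozygotes from -0.012 to -0.000828 without high ependymal scores. All medians stayed below 0 in the alternatives run. The log2 change of Calcoco1 turned to 0.0218 with 3 surrogate variables. Of the further lists (an alternative chosen after the data were seen), 3 genes were called with DESeq2, 1 with tissue scores and 1 without high ependymal scores (Atp6v0e in both), and 0 to 1 without single libraries (Sesn1 without homozygous replicate 1, Atp6v0e without homozygous replicate 2). The causes were not tested.

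Over all genes, 261 were called in homozygotes against wild type, 18 against heterozygotes and 306 for the trend. DESeq2 called 639, 102 and 701, 3 surrogate variables left 19, 1 and 40, and tissue scores 168, 10 and 155. Without filter, 11 genes were called against heterozygotes, and without high ependymal scores 193 for the trend. Leaving out single libraries gave 115 to 314, 5 to 31 and 159 to 436. With the replicate block, which keeps replicates 1 to 6, 0 of 36 members were called in each comparison, the median log2 change of members in homozygotes against wild type was -0.026 and 388 of all genes were called. Same-numbered libraries did not deviate together (correlations from -0.104 to 0.139, and 4 of 18 pairs best with their own number), so the numbers were not taken to pair them. Precision was lowest for Tfeb, Atg4a and Atg10, the members of fewest counts.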
